A study of Mus musculus with 2 samples.

Results

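The SLC25 family is the set of mitochondrial carrier genes on a pair of mouse arrays, taken as every noncontrol probe whose gene name in the array files begins with Slc25a. This gave 53 probes of 44 genes, out of 55681 noncontrol probes and 27665 named genes. The arrays measured RNA of CD4 T cells sorted after 24 h from spleen cell cultures of female OVA-TCR-Tg mice, whose T cells carry a transgenic receptor for ovalbumin (OVA). In the naive-only group, spleen cells at 2500 cells/μL were given OVA at 0.1 mg/mL. In the co-culture group, 1250 naive spleen cells/μL received the same OVA together with as many OVA-TCR-Tg spleen cells that had earlier been stimulated with the superantigen TSST-1 at 0.1 μg/mL, the cells called anergic in the labels. All cells in both groups thus came from the same transgenic strain and met OVA. Whether sorting parted the naive cells from the TSST-1-treated ones is not stated in the labels, nor is the number of animals or any pooling.

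Each group had 1 single-colour array, so there was no replicate, no test between the groups was possible, and the errors below are technical. Levels are log2 intensities relative to the 75th percentile of the array (299.4 intensity units for naive-only and 301.3 for co-culture). A difference is the co-culture level minus the naive-only level, with the combined error of the scanner software's error model. That model gives nearly all bright genes the same error (median 0.20), and it leaves out the spread between cultures. A gene was represented by its brightest probe, by mean level over both arrays. It was called measured where both arrays read this probe well above background. The 10 T cell markers checked were all measured, with Cd4 at 5.54 in naive-only and 5.90 in co-culture cells. Of the 10 differences, 7 were positive and 3 negative, beside 45.6% and 54.4% of all measured genes. They ran from Cd5 (-0.92) to Cd3d (0.90). Of 11 B cell markers, 10 were measured and all 10 lay at least 2-fold down in the co-culture, beside 5.54% of all measured genes. Their median difference was -1.97, beside -0.05 for all measured genes. Pax5, the other B cell marker, passed background in naive-only cells alone. Its level there (-3.93) was no higher than the dimmest co-culture signal that passed (-3.90), so no smallest difference can be given. The summed intensity of the B cell markers was 16185 units in naive-only and 3591 in co-culture cells, beside 358525 and 433012 for the T cell markers. Class II antigen presentation markers went from 63699 to 15313 units. Of 6 measured genes, 5 lay at least 2-fold down (median -2.49), beside 5.54% of all measured genes. The part of other cells' RNA in the differences below was not tested. In such bulk samples, fewer cells of a type and less RNA per cell cannot be told apart.

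Mitochondrial carriers are small membrane proteins built from a repeated fold, and most sit in the inner mitochondrial membrane. There they exchange nucleotides, phosphate, carboxylates, amino acids, cofactors and metals between the cytosol and the matrix. In T cells, activation by antigen comes with growth of the mitochondrial network and a higher demand for such exchange.

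Sequences are shown for the carriers that differed most, so that a reader can see which stretch of each transcript was measured. The first 30 of the 60 bases of each probe follow, 5′ to 3′, as the deposited files give them, in lower case with no base marked.
Slc25a42: ggtcactgtccagtctggagttctattttg
Slc25a40: agcaaaaagcactttatcacgttttatgtg
Slc25a24: catcttgtatcttttttggggaaaaaaccc
Slc25a45: tgaacaggaggatgacttctgtcttcttca
Slc25a33, brighter probe: agtgttcaaaactgaaacagtgaaggccat
Slc25a33, other probe: accttaatgaatcctatttggatggttaaa
Slc25a15: gaccaatttttaggtagatggttgtagatg
Slc25a26, brighter probe: tgactacacctctggacgtggctaagacaa
Slc25a26, other probe: agtgaccgccgcacacacttagtatttata
On mm9, the build of the array files, the Slc25a42 probe lies on chromosome 8, 72708298 to 72708357, the Slc25a40 probe on chromosome 5, 8454558 to 8454617 and the Slc25a24 probe on chromosome 3, 108971266 to 108971325. The Slc25a45 probe lies on chromosome 19, 5885329 to 5885388 and the Slc25a15 probe on chromosome 8, 23487872 to 23487931. The brighter Slc25a33 probe lies on chromosome 4, 149118713 to 149118772, and the other spans chromosome 4, 149123432 to 149126565, more genome than 60 bases. Likewise, the brighter Slc25a26 probe spans chromosome 6, 94548392 to 94549185, and the other lies on chromosome 6, 94554505 to 94554564. Exon and UTR annotation of mm9 was not used here.

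Promoter windows reach from 250 bases before to 50 bases after an annotated start, and come from RefSeq (GRCm38.p6), whose table held 43 windows of 34 of the 44 genes. They are shown for both genes that were at least 2-fold lower and for the one with the largest positive difference. The motifs searched on both strands were the E-box CACGTG, the NRF1 palindrome (GCGCA followed by its reverse complement), the ETS core CCGGAAG, the amino acid response element TGATGNAAN, the cyclic AMP response element TGACGTCA and the CCAAT box CCAAT. Capitals mark every match, and no matches overlapped in the windows shown.
Slc25a33 promoter, chr4:149774218-149774517, minus strand: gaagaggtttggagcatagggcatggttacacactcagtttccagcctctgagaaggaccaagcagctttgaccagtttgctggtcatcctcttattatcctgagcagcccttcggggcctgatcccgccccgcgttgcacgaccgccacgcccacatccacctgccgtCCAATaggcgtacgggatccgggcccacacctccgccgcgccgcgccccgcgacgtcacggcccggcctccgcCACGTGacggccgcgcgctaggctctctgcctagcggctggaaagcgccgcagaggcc
Slc25a15 promoter, chr8:22398228-22398527, minus strand: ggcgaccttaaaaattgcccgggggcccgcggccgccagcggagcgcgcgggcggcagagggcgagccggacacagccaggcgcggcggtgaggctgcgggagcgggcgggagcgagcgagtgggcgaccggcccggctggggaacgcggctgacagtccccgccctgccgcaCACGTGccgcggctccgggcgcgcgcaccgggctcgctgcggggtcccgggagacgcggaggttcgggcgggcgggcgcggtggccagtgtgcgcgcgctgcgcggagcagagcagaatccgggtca
Slc25a42 promoter, chr8:70212232-70212531, minus strand: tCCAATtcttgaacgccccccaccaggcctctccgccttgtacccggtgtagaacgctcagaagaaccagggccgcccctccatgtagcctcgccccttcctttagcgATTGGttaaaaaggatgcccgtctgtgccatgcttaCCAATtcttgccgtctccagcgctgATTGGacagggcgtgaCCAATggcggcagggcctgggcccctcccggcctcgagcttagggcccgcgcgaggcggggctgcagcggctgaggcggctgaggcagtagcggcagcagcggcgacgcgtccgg
The E-box stood in 8 of 43 carrier windows (18.6%), beside 7.15% of all 32851 windows in the table. Those windows belonged to Slc25a1, Slc25a13, Slc25a14, Slc25a15, Slc25a31, Slc25a33 and Slc25a36, of which only Slc25a15 and Slc25a33 were at least 2-fold apart. The other Slc25a15 window, and the windows of Slc25a24, Slc25a40 and Slc25a45, held none of the 6 motifs. The CCAAT box was in 48.8% of the carrier windows and 37.4% of all windows, and the Slc25a42 window held 5 copies. The ETS core was in 14% and 8.86%, and the cyclic AMP response element in 4.65% and 1.79%. The NRF1 palindrome and the amino acid response element were in no carrier window, beside 0.971% and 3.95% of all windows. In these shares, windows were not matched for base composition, and some genes had several windows.

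Of the 44 Slc25a genes, 34 (77.3%) were measured, beside 52.0% of all named genes. None was above background on 1 array only. The remaining 10 were not well above background on either array, with intensities from 3.8 to 24.1 units. These were Slc25a2, Slc25a18, Slc25a21, Slc25a23, Slc25a27, Slc25a31, Slc25a34, Slc25a41, Slc25a43 and Slc25a48, and nothing is said of their differences.

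Of the measured carriers, 6 (17.6%) differed by at least 2-fold in either direction, beside 13.3% of the 14378 measured genes. Of these, 4 were at least 2-fold higher in the co-culture (11.8%), beside 7.72% of all measured genes. The other 2 were lower (5.88%), beside 5.54%. The carriers on the higher side were Slc25a42, Slc25a40, Slc25a24 and Slc25a45, and those lower were Slc25a33 and Slc25a15. With 34 genes, these shares are near the background. The median difference of the family was -0.15, with quartiles of -0.37 and 0.25, beside -0.05 for all measured genes, with quartiles of -0.37 and 0.33. Differences larger than 2 technical errors were seen in 15 carriers (44.1%), beside 41.5% of all genes. Of these carriers, 8 were higher and 7 lower, beside 20% and 21.5% of all genes. As a family, then, the carriers were spread about as widely as genes in general, and the differences lay in single members.

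**Figure D1:**
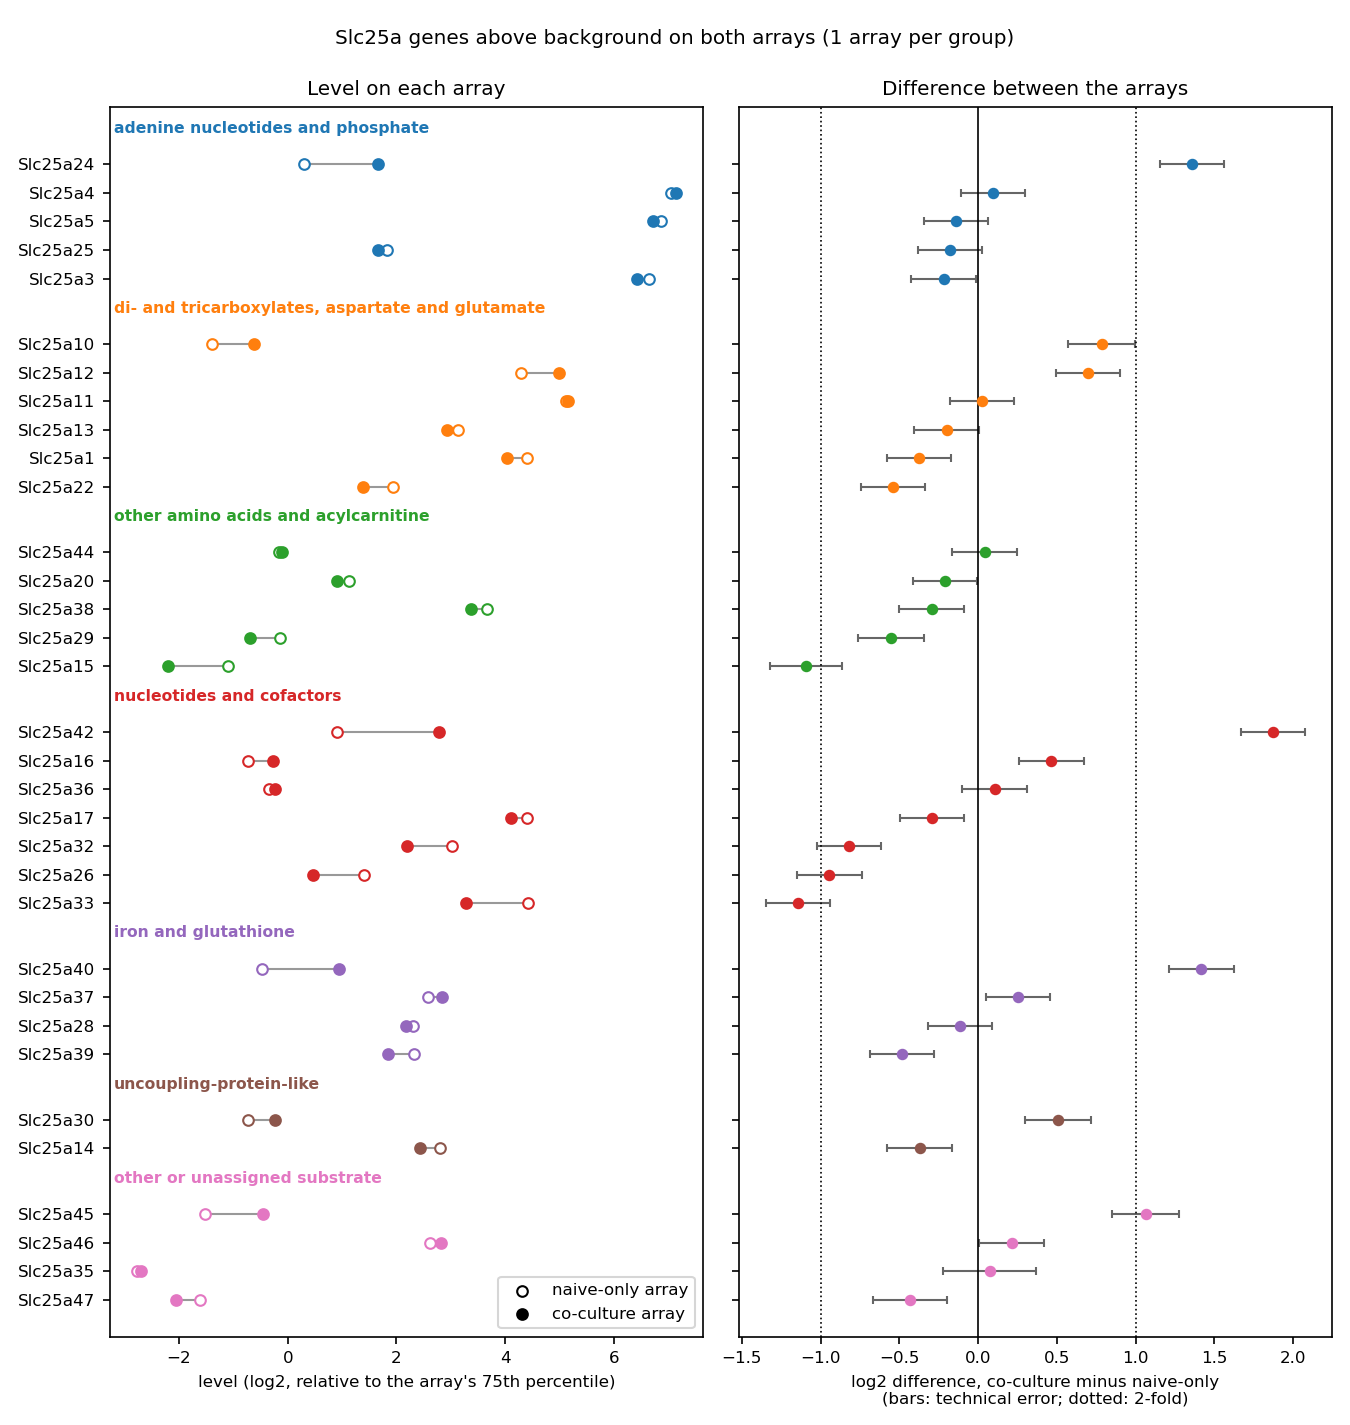
The measured Slc25a genes that are reported by name, grouped by what they carry, with the level of the representative probe in naive-only (open) and co-culture (filled) cells on the left, as log2 intensity scaled to each array's 75th percentile, and the co-culture minus naive-only difference with its technical error on the right. Slc25a42, Slc25a40, Slc25a24 and Slc25a45 lie past the upper 2-fold line, and Slc25a33 and Slc25a15 past the lower one.

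Carriers of adenine nucleotides and phosphate supply the matrix with the substrates of ATP synthesis and export the ATP made there. The abundant translocators and the phosphate carrier differed little, and 1 of 5 measured genes passed 2-fold, beside 13.3% of all genes. Slc25a4, which exchanges ADP for ATP, had a level of 7.05 in naive-only and 7.14 in co-culture cells, a difference of 0.10 ± 0.20. Its probe was printed in 10 spots, whose log2 SD was 0.05 for naive-only and 0.041 for co-culture. The spots ranged from 6.97 to 7.10 and from 7.08 to 7.21 (log2), so the arrays' ranges overlapped slightly. Slc25a5, another translocator, was at 6.87 and 6.72, a difference of -0.14 ± 0.20. Its other probe, which read far lower on both arrays (0.68 and 0.60), gave -0.09. The phosphate carrier gene Slc25a3 was at 6.64 and 6.43 (-0.22 ± 0.20), and its other probe gave -0.45. All of these lie within or close to 1 technical error on the representative probe.

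Slc25a24, which encodes a calcium-regulated carrier that exchanges ATP-Mg for phosphate, was the member of this group that stood apart. It gave 368.1 intensity units in naive-only and 949.6 in co-culture cells, or levels of 0.30 and 1.66. The difference was 1.36 ± 0.20, or 2.56-fold higher, from 1 probe. Slc25a25, a carrier of the same kind, was at 1.83 and 1.65 (-0.18 ± 0.20), and its other probe also gave -0.18. The other such carriers on the array, Slc25a23 and Slc25a41, were not above background.

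Carriers of di- and tricarboxylates, aspartate and glutamate move carbon and reducing equivalents, and several belong to the malate-aspartate shuttle, which passes electrons from cytosolic NADH to the matrix. None of 6 measured genes passed 2-fold, beside 13.3% of all genes. Of the 6, 3 (50%) differed by over 2 technical errors, beside 41.5% of all genes. Slc25a12 (Aralar), an aspartate-glutamate carrier, was at 4.29 in naive-only and 4.98 in co-culture cells, a difference of 0.70 ± 0.20. Slc25a10, the dicarboxylate carrier gene, was at -1.40 and -0.62 (0.78 ± 0.21). Slc25a22, a glutamate carrier gene, was lower, at 1.93 and 1.39 (-0.54 ± 0.20). Slc25a11, whose product exchanges oxoglutarate for malate, was alike on both arrays at 5.13 and 5.15 (0.03 ± 0.20). Slc25a13, the other aspartate-glutamate carrier gene, stood at -0.20, and the citrate carrier gene Slc25a1 at -0.37, both within 2 technical errors.

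Among carriers of other amino acids and of acylcarnitine, 1 of 5 measured genes passed 2-fold, beside 13.3% of all genes. Of the 5, 4 were negative on the representative probe, beside 54.4% of all genes. By over 2 technical errors, 2 of the 5 were lower, beside 21.5% of all genes. Slc25a15 encodes the ornithine carrier, which links matrix and cytosol in the urea cycle and in polyamine and proline synthesis. It was dim, with 139.4 intensity units in naive-only and 65.8 in co-culture cells, or levels of -1.10 and -2.20. The difference was -1.09 ± 0.23, or 2.13-fold lower, from 1 probe. With normexp, a model-based background correction, it was -0.72, short of 2-fold. Slc25a29, a carrier of basic amino acids, was at -0.13 and -0.69 (-0.56 ± 0.21). Slc25a38, which brings glycine into the matrix for heme synthesis, was at 3.67 and 3.37 (-0.30 ± 0.20). Slc25a20, the carnitine/acylcarnitine carrier gene of fatty acid oxidation, was at 1.12 and 0.91 (-0.21 ± 0.20). Slc25a44, a carrier of branched-chain amino acids, was at 0.04 ± 0.21 on its representative probe and at -0.49 on the other. That other probe was the brighter one on the naive-only array (286.5 against 269.2 units), so the direction for Slc25a44 depends on the probe.

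Carriers of nucleotides and cofactors held the largest differences of the family in both directions. Of the 8 measured genes, 5 (62.5%) differed by over 2 technical errors, beside 41.5% of all genes. Slc25a42, which imports coenzyme A in exchange for adenine nucleotides, gave 559.7 intensity units in naive-only and 2062.3 in co-culture cells. Its levels were 0.90 and 2.78, a difference of 1.87 ± 0.20, or 3.66-fold higher, at the 97.6 percentile of all measured genes. The value rests on 1 probe, printed in 1 spot. Slc25a16, a related carrier also linked to coenzyme A, was at -0.73 and -0.27 (0.47 ± 0.21).

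Slc25a33, which imports pyrimidine nucleotides for mitochondrial DNA and RNA synthesis, was the lowest of the family. It gave 6394.0 intensity units in naive-only and 2915.5 in co-culture cells, or levels of 4.42 and 3.27. The difference was -1.14 ± 0.20, or 2.21-fold lower, and the other probe gave -1.07. Both probes therefore placed it past 2-fold. Slc25a26, which imports S-adenosylmethionine, the methyl donor of the matrix, was at 1.40 and 0.46 (-0.94 ± 0.20) on its brighter probe. The other probe was at 1.14 and 0.00 (-1.14 ± 0.21), so the 2-fold line ran between them. Slc25a32, a carrier of folate and flavin, was at 3.01 and 2.20 (-0.82 ± 0.20). Slc25a33, Slc25a26 and Slc25a32 were each lower by about 4 technical errors or more, and are set together because of these values. Of the 8 measured genes of the group, these 3 were lower by over 2 technical errors, beside 21.5% of all genes. Slc25a42 and Slc25a16 were the 2 that were higher by as much, beside 20%. Slc25a17 and Slc25a36 lay closer to 0. Slc25a17, a peroxisomal carrier of cofactors, was at 4.40 and 4.11 (-0.29 ± 0.20), and Slc25a36, another pyrimidine nucleotide carrier gene, at -0.34 and -0.23 (0.10 ± 0.21).

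Carriers of iron and glutathione serve heme and iron-sulfur cluster synthesis and protection from oxidants. Slc25a40, a glutathione carrier gene, was 2.67-fold higher, and its relative Slc25a39 was lower. Slc25a40 gave 216.5 intensity units in naive-only and 582.0 in co-culture cells, levels of -0.47 and 0.95 and a difference of 1.42 ± 0.21. Its other probe, designed on a retinal cDNA, was not above background on either array. Slc25a39, which is needed for mitochondrial glutathione import, was at 2.33 and 1.84 (-0.48 ± 0.20). The mitoferrin genes, whose products import iron, differed little. Slc25a28 was at 2.30 and 2.18 (-0.12 ± 0.20). Slc25a37 was at 2.58 and 2.84 (0.26 ± 0.20), whereas its dimmer probe gave -0.58, so the direction for Slc25a37 depends on the probe.

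None of 2 measured uncoupling-protein-like carriers passed 2-fold. Of 4 measured carriers with another or an unassigned substrate, 1 did, beside 13.3% of all genes. Slc25a45 gave 104.1 intensity units in naive-only and 219.2 in co-culture cells, or levels of -1.52 and -0.46. The difference was 1.06 ± 0.21, or 2.09-fold higher, from 1 probe, and 0.81 with normexp, short of 2-fold. Slc25a30 was at -0.74 and -0.23 (0.51 ± 0.21), and Slc25a14 at 2.81 and 2.44 (-0.37 ± 0.20). Slc25a46, whose product lies in the outer membrane and takes part in mitochondrial shape, was at 2.61 and 2.82 (0.21 ± 0.20), with 0.44 on its other probe. The dim genes Slc25a35 (0.07 ± 0.30) and Slc25a47 (-0.43 ± 0.23) were within 2 technical errors of 0.

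Of 8 pairs of carriers with a shared substrate, picked with values in view, 6 had both members measured, and their differences are set side by side as a description. Slc25a40 stood above Slc25a39 by 1.90 ± 0.29 in log2 difference, and Slc25a36 above Slc25a33 by 1.25 ± 0.29. The difference of Slc25a25 minus that of Slc25a24 was -1.54 ± 0.29, and that of Slc25a13 minus Slc25a12 was -0.90 ± 0.29. The adenine nucleotide translocators Slc25a4 and Slc25a5 (-0.24 ± 0.29) and the mitoferrins Slc25a28 and Slc25a37 (0.37 ± 0.29) lay within 2 technical errors of each other. These errors are technical, and without replicates the contrasts have no test.

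**Figure D2:**
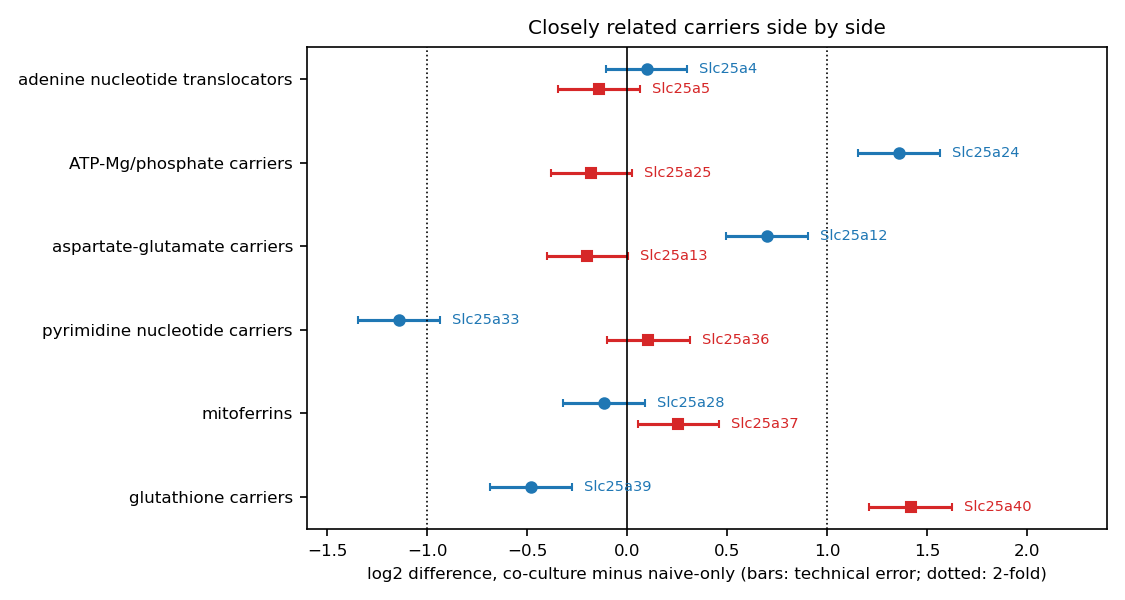
Log2 difference, co-culture minus naive-only, of each member of the 6 pairs of related carriers with both members measured, with the technical error as bars and 2-fold as dotted lines. Slc25a40, Slc25a24 and Slc25a12 lie above 0 while Slc25a39, Slc25a25 and Slc25a13 lie below it.

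Other mitochondrial gene lists give the setting of these differences. For the counts past 2-fold below, the share over all measured genes was 13.3% in either direction. The translocases that bring carriers into the mitochondrion had 15 of 16 measured genes negative, beside 54.4% of all genes. Their median was -0.48, beside -0.05 for all genes. Only Timm10, a chaperone of carriers between the membranes, passed 2-fold (-1.03 ± 0.20). Of these 16 genes, 10 were lower by over 2 technical errors, beside 21.5% of all genes, and none was higher by as much, beside 20%. Enzymes of the malate-aspartate shuttle and citrate cycle lay near 0 (median -0.05 over 22 genes, none past 2-fold). Of 16 ATP synthase genes, 14 were negative, beside 54.4% of all genes. Their median was -0.18, and 1 passed 2-fold. That gene was Atpif1, which encodes an inhibitor of ATP synthase and not a subunit. It was at 5.86 in naive-only and 7.40 in co-culture cells (1.54 ± 0.20). Atp5e, which encodes a subunit, was the other gene of the list past 2 technical errors, at -0.58 ± 0.20.

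The genes of heme and iron-sulfur synthesis had a median of -0.18 over 16, with none past 2-fold. The pyruvate carrier and outer membrane channel genes had a median of -0.21 over 5, also with none. Of all measured genes, 13.3% passed 2-fold. Of the mitochondrial folate enzymes, which use what the folate carrier brings in, 4 were measured, with a median of 0.37. Among them, Mthfd2 was at 0.57 ± 0.20, Shmt2 at 0.39 ± 0.20, Mthfd2l at 0.34 ± 0.22 and Mthfd1l at -0.06 ± 0.20. Aldh1l2, the other enzyme, passed background in co-culture cells alone, and was at least 9.57-fold higher there when set against the dimmest naive-only signal that passed. Family proteins that the array files name otherwise had a median of 0.58 over 5 measured. Mtch1 was at 0.99 ± 0.20, Ucp3 at 0.62 ± 0.20, Ucp2 at 0.58 ± 0.20 and Mtch2 at -0.11 ± 0.20. The NAD carrier gene Slc25a51, listed there as Mcart1, was at 3.46 and 2.73 (-0.74 ± 0.20). It was lower by over 2 technical errors, as were 21.5% of all measured genes.

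**Figure D3:**
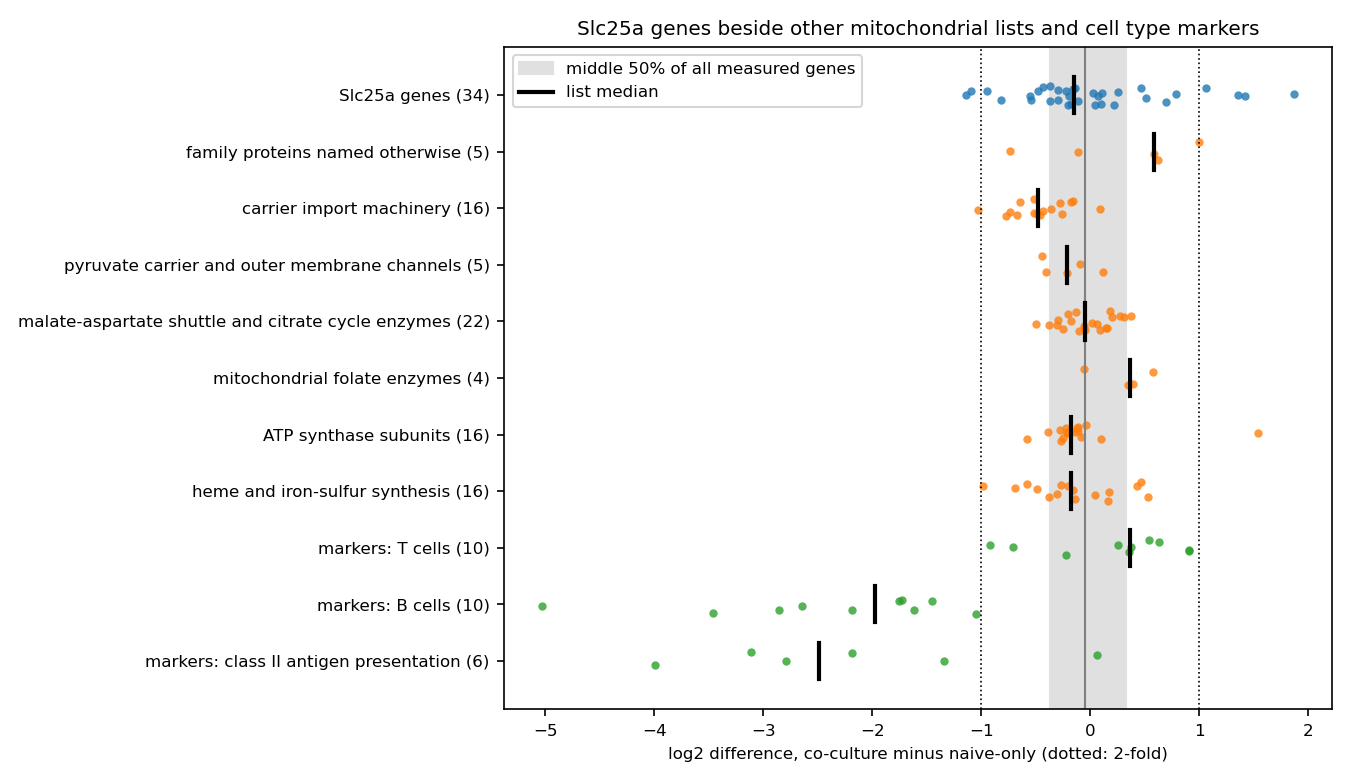
Log2 difference, co-culture minus naive-only, of each measured gene (points) of the Slc25a family, of 7 other mitochondrial lists and of 3 marker lists, with the number measured in parentheses, the list median as a black bar and the middle 50% of all measured genes in grey. The band shows the spread of single genes and is no yardstick for a median. The list medians are -0.15 for Slc25a, -0.48 for the import machinery and -1.97 for the B cell markers.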

How the data were processed

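RNA of sorted CD4 T cells was amplified (Ovation RNA Amplification System V2) and labelled with Cy3, per the labels' protocols. Scanner images were read into spot intensity by Feature Extraction 10.7.1.1, per the file headers (the submitters' processing notes name 9.5.1.1). It is background-subtracted and linear. The deposited value table holds an intensity that was normalized between arrays, as its values show. Ranks matched the scanner values on each array (Spearman correlation 1), the median was 14.5 in both columns, and the sorted columns differed by at most 0.0369%. No source used here gives further steps.

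Log2 processed signals were averaged over a probe's spots and scaled to the array's 75th percentile. Probes with names from the files were updated through a RefSeq table (27235 of 36743 matched; 51 of 53 Slc25a probes). Of the measured members, 1 is counted but not reported by name here. No member spot was saturated. Alternatives changed the background correction, the scaling, the filter on dim probes, the outlier spots and the choice of probe. The members and lists were chosen with earlier results of these data known. All Slc25a genes could be named, with both levels for those past 2-fold and the 2 brightest of each role group, and of other lists up to 4 genes past 2-fold per direction. Genes named beyond this rule, the related pairs and the motifs were chosen with values in view. Other markers had medians of 0.36 (T cell, 10 genes), -0.84 (dendritic, 6), -0.35 (macrophage, 6), 0.24 (neutrophil, 5), -0.02 (CD8, 2), -1.50 (natural killer, Tyrobp alone) and 0.02 (erythroid, 3). Besides Tyrobp, the measured genes of these lists past 2-fold were as follows. Ly6g (5.80) and Epor (2.42) were higher in the co-culture. Fscn1 (-4.56), Flt3 (-2.87), Cd14 (-1.71), Lyz2 (-1.12) and Hba-a1 (-1.08) were lower. Mpo and Klrd1 passed background in the co-culture alone (at least 3.95-fold and 4.62-fold higher), and Ncr1 and Klra8 in naive-only cells alone (at least 2.38-fold and 1.57-fold higher there). Python 3.11.15, numpy 2.4.6, pandas 2.3.3, matplotlib 3.10.9, R 4.3.3 and limma 3.58.1 were used, and the calculation was tested on simulated data.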

Additional observations from a re-analysis of the deposited data

How the results depend on the processing

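Over 11 alternatives, no Slc25a gene at least 2-fold apart changed direction, and the family median stayed between -0.17 and 0.04. The count of carriers at least 2-fold lower was 1 instead of 2 with normexp and with a stricter filter on dim probes, which drops Slc25a15. The count at least 2-fold higher was 7 instead of 4 with no filter, where Slc25a18, Slc25a27 and Slc25a43 enter without being above background, and the lower count was 3, with Slc25a21 entering likewise. With normexp, 3 carriers were higher, without Slc25a45. Averaging measured probes added Slc25a26 (-1.04) to those lower and turned the signs of Slc25a37 (-0.16) and Slc25a44 (-0.22), which were not past 2-fold. Normexp also turned the sign of Slc25a44 (-0.39). Slc25a42 ranged from 1.77 to 1.92, Slc25a40 from 1.23 to 1.47, Slc25a24 from 1.26 to 1.41 and Slc25a33 from -1.14 to -1.07. The number of arrays limits precision, and for carriers near background such as Slc25a15 so does the signal. No paired analysis was possible because each group had 1 array.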
